A study of Gallus gallus with 4 samples.

Results

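The genes described here encode the proteins of the cytosolic ribosome and the factors that start and extend translation. They were taken by symbol: names that begin with RPL, RPS, EEF or EIF and go on as ribosomal protein, elongation factor or initiation factor names do, without the ribosomal S6 kinases and EIF2AK2, and with a mean of at least 1 CPM (a read count scaled to the size of its library) over the 4 libraries. The rule gave 127 of the 26296 genes in the table, classed by symbol as 75 ribosomal protein genes and 52 factor genes. The first class holds 6 variants and like-named genes, among them RPS19BP1, named as a binding protein of RPS19. The second also holds genes that regulate or accompany the factors: EEF2K, EEF1E1, the EIF2 kinases and the EIF4E-binding proteins. All 127 were among the 16545 genes with enough reads to be tested. RPL35A (mean 1.19 CPM) and RPL3L (1.22 CPM) lay just inside the minimum. EIF1AD (0.878 CPM) and RPL14 (0.689 CPM) lay just outside it, and EIF4E1B had no read.

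RNA was sequenced from whole trachea of chickens (Gallus gallus) 42 days old. The exposed group (labelled H, 2 libraries) lived in chambers into which anhydrous hydrogen sulfide was metered, which kept 3.5 to 4.5 mg/kg through weeks 0 to 3 and then 19.5 to 20.5 mg/kg through weeks 4 to 6. The control group (labelled C, 2 libraries) lived in a chamber without added gas, so an effect of the gas and an effect of the chamber cannot be told apart. The labels give neither breed nor sex, and they do not say how many birds are behind a library. The p-values below therefore measure only the spread between these libraries, which may be technical in part. Within each group the libraries differed in the level of Z chromosome genes, by medians of 0.56 and 0.58 on the log2 scale. The source of the spread was not tested.

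The ribosome is built from a small subunit, which decodes the mRNA, and a large subunit, which joins amino acids and carries the flexible stalk that recruits elongation factors. Initiation factors (eIF) bring the initiator tRNA, the small subunit and the capped mRNA together. Elongation factors (eEF) then deliver aminoacyl-tRNA and move the ribosome along. In vertebrates, mRNAs of ribosomal proteins and of several elongation factors share a pyrimidine tract at their 5′ end through which mTOR signalling controls their translation, so their mRNA level is only part of the control of ribosome production. In an airway, translation also supplies the secreted mucins and antibodies of the mucosa.

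The deposited counts summed to 22283320 reads in the library of hydrogen sulfide replicate 1, 22706119 in replicate 2, 17400644 in control replicate 1 and 16899066 in control replicate 2. Tracheal markers were present in each library, with the cilia regulator FOXJ1 at 157 to 232 CPM and the cartilage collagen COL2A1 at 2793 to 12943 CPM. The libraries differed in tissue markers in ways that the groups do not explain. The 17 cartilage markers summed to 6987 CPM in control 1, against 21229 and 31987 CPM in the exposed libraries and 35266 CPM in control 2. The 33 skeletal muscle markers summed to 19112 and 17109 CPM in hydrogen sulfide 1 and control 1, against 7757 and 3149 CPM in hydrogen sulfide 2 and control 2. The 33 include DTNB, which a synonym lookup put in place of MYLPF. It stood at 32.4 to 48.1 CPM, a small part of each sum. In bulk tissue, fewer cells of a type and less RNA per cell cannot be told apart.

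Ribosomal protein genes stood slightly higher in the exposed tracheas and the factors did not shift as a class, but the difference rested largely on control 1. Without control 1 the ribosomal protein median did not exceed that of all tested genes. The median log2 fold change (hydrogen sulfide over control) was 0.12 over the ribosomal protein genes, 0.019 over the factors and 0.011 over all tested genes. Of the 75 ribosomal protein genes, 57 had a positive fold change, and of the 52 factor genes 27 did, against 51.6% of all tested genes. Both exposed libraries lay above both controls in 22 ribosomal protein genes (29.3%) and in 10 factors (19.2%), where the background over all tested genes was 15.3%. Both lay below in 6 and 6 genes, or 8% and 11.5%, against a background of 17.2%. With library totals in place of TMM factors (a normalization that guards against shifts in composition), these splits were 17 above and 10 below for ribosomal proteins and 6 above and 16 below for factors, with backgrounds of 10.2% and 23.6%. The positive fold changes were then 46 and 15, and the median over all tested genes was -0.071, against 0.011 with TMM factors. RPL3L counts among the 22 and the 57 given above, though it met the CPM minimum only through its exposed libraries. RPL35A, also among the 57, met it only through hydrogen sulfide 1.

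No member passed the test. The quasi-likelihood test of edgeR called 0 of the 16545 tested genes (0%) at a Benjamini-Hochberg adjusted p under 0.05, and the smallest adjusted p among the members was 0.762. At an unadjusted p under 0.05, edgeR gave 5 members, all of them ribosomal protein genes with higher levels after exposure, against 5.58% of all tested genes (2.12% higher and 3.46% lower). One of these 5, RPL3L, reached the minimum of 1 CPM only through its exposed libraries, so it had to be higher there and its direction supports nothing. DESeq2 called 132 of the 15657 genes it adjusted (0.843%) and the edgeR exact test 79 (0.477%), and neither called a member.

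By library, the median ribosomal protein gene stood 0.10 and 0.024 above its own mean over the 4 libraries in hydrogen sulfide 1 and 2, on the log2 scale. It stood 0.21 below it in control 1, a deviation of -0.21, and 0.078 above it in control 2. Control 2 thus lay between the exposed libraries, and control 1 alone was low. Control 1 was the lowest of the 4 libraries for 46 of the 75 ribosomal protein genes, against 28.5% of all tested genes, and control 2 for 8 of 75, against 27.6%. The factors deviated less, by 0.056, -0.045, -0.065 and 0.025 in the same order. Control 1 and hydrogen sulfide 2 were each lowest for 17 of 52 factors, against 28.5% and 25.4% of all tested genes. Ribosomal protein genes as a whole took 1.174% and 1.147% of all reads after exposure, against 1.031% and 1.172% for the controls. Factor genes took 1.116%, 1.013%, 1.110% and 1.106% in that order. Without control 1 the median log2 fold change of the ribosomal protein genes was 0.020, against 0.032 over all tested genes. Without control 2 it was 0.26, against -0.0072 over all tested genes. Control 1 was also the library with the low cartilage sum given above, and the part of that in the ribosomal protein values was not tested.

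**Figure D1:**
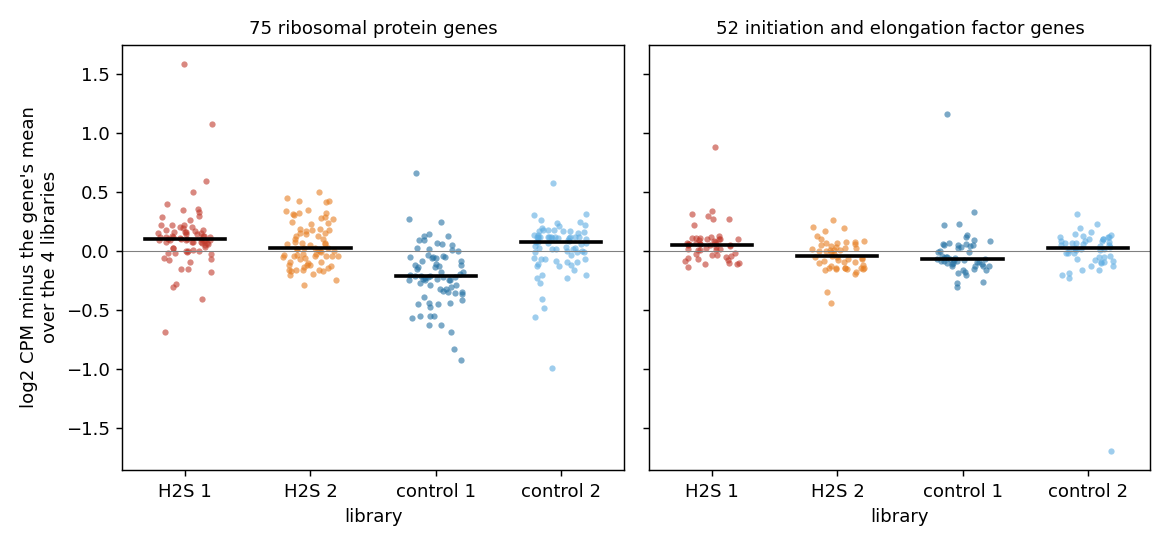
Each point is a gene, placed at its log2 CPM in a library minus its mean over the 4 libraries; bars are medians over the 75 ribosomal protein genes (left) and the 52 factor genes (right). The left-hand median of control 1 lies at -0.21, below the other 3 libraries, while all factor medians lie between -0.065 and 0.056.

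The ribosomal protein genes were also more spread out than the factors. Their log2 fold changes ran from -0.37 to 2.27 with an interquartile range of 0.31, and those of the factors ran from -0.30 to 0.41 with an interquartile range of 0.18. All tested genes had an interquartile range of 0.41. The highest values of the ribosomal proteins were 2.27 for RPL3L and 1.01 for RPL35A, and the next was 0.90 for RPS27A. RPL3L met the CPM minimum only through its exposed libraries, and RPL35A only through hydrogen sulfide 1. Of the factors, 47 of 52 (90.4%) lay within 0.25 of no difference, and of the ribosomal protein genes 46 of 75 (61.3%). The share over all tested genes was 56.8%, near that of the ribosomal protein genes. The median standard error of a fold change was 0.20 for ribosomal protein genes, 0.17 for factors and 0.29 for all tested genes. The class medians by library, given above, had a pooled standard deviation within the groups of 0.15 for ribosomal proteins and 0.068 for factors, so the ribosomal protein shift was smaller than the spread of its own median between replicates.

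**Figure D2:**
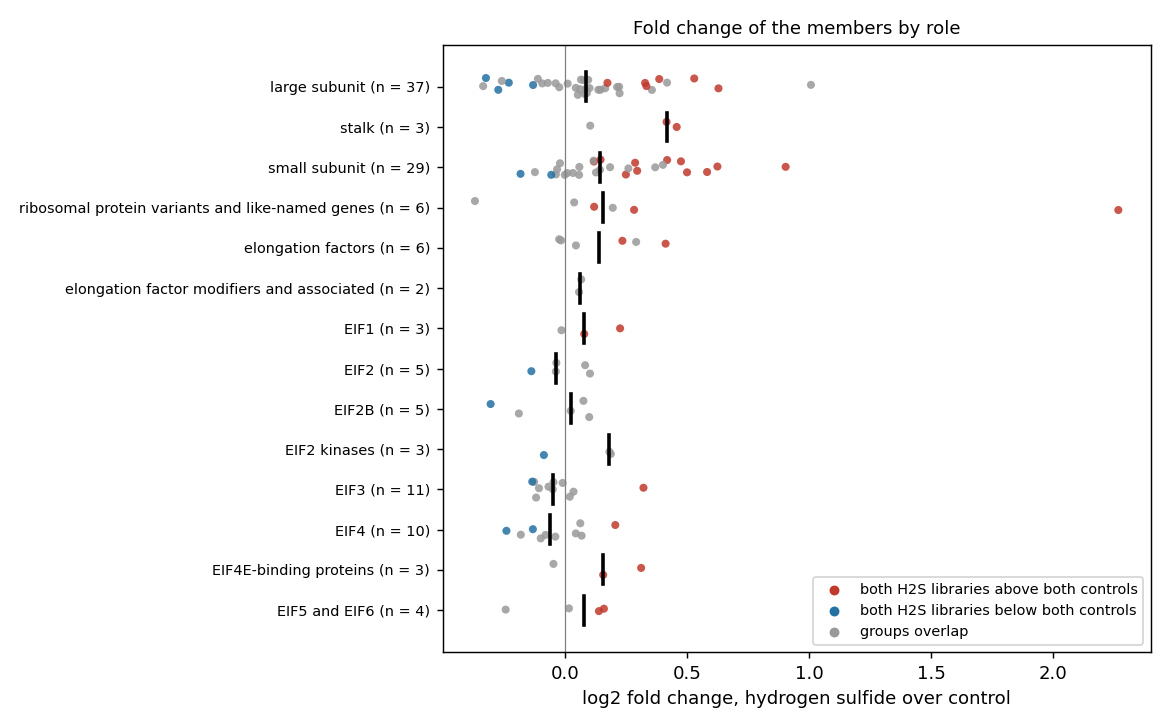
Points are the 127 members by role, placed at their log2 fold change (hydrogen sulfide over control); colours mark genes whose exposed libraries both lie above or below both controls, and bars are medians of the role. Exposed libraries both lie above in 11 of the 29 small subunit genes and in 32 of all 127 members, against 15.3% of all tested genes. RPL3L, among the 32, stands apart at 2.27 on few reads and met the CPM minimum only through its exposed libraries.

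The large subunit had 37 members, of which 26 had a positive fold change, and their median was 0.086. Only RPL23 had an unadjusted edgeR p under 0.05. Its level was 28.4 and 29.2 CPM in the exposed libraries and 15.7 and 21.6 CPM in the controls (log2 fold change 0.63, SE 0.23, adjusted p = 0.869 by edgeR). The exposed libraries lay close together and above both controls, which differed from each other. RPL38, which mouse studies tie to translation of Hox mRNAs, stood at 18.8 and 15.5 CPM against 10.6 and 13.1 CPM (log2 fold change 0.53, SE 0.24). RPL7A, the large subunit gene with the most reads, stood at 545 and 516 CPM against 398 and 446 CPM (0.33, SE 0.18), again with no overlap.

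The lowest fold changes of the large subunit belonged to RPL29, RPL39, RPL37, RPL5 and RPL36, in that order. RPL39, a small protein that lines the peptide exit tunnel, was the steadiest of these. It stood at 97.2 and 99.7 CPM in the exposed libraries and 120 and 126 CPM in the controls (log2 fold change -0.32, SE 0.14, adjusted p = 0.954 by edgeR), and its fold change kept to between -0.35 and -0.30 whichever library was left out. The reference table gives RPL39 as a synonym of its RPL39L entry. RPL36 was likewise lower without overlap, at 32.1 and 29.8 CPM against 37.0 and 35.5 CPM (-0.23, SE 0.16). RPL5, which with RPL11 and the 5S rRNA forms a particle that can also restrain MDM2, stood at 25.2 and 22.9 CPM against 25.1 and 32.4 CPM (-0.26, SE 0.21), and the groups overlapped. RPL29 split by replicate and not by group, at 34.1 and 68.3 CPM in the exposed libraries and 47.2 and 81.9 CPM in the controls (-0.33, SE 0.44).

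The 3 stalk genes had fold changes of the same sign. RPLP1, an acidic stalk protein, stood at 250 and 207 CPM in the exposed libraries and 153 and 188 CPM in the controls (log2 fold change 0.42, SE 0.20, adjusted p = 0.972 by edgeR). Its partner RPLP2 stood at 146 and 152 CPM against 80.9 and 136 CPM (0.46, SE 0.28). RPLP0, the base of the stalk, stood at 353 and 333 CPM against 281 and 358 CPM (0.10, SE 0.20), and its groups overlapped. In all 3 genes control 1 was the lowest library, and without it the fold changes were 0.28, 0.14 and -0.053.

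The small subunit had 29 members, of which 23 had a positive fold change, with a median of 0.14. Both exposed libraries lay above both controls in 11 of them (37.9%) and below in 2 (6.90%), RPS21 and RPS27, where the shares over all tested genes were 15.3% and 17.2%. RPS27A, whose product is ubiquitin fused to a ribosomal protein and is cut apart after translation, had the largest difference of any member with at least 5 CPM. It stood at 134 and 111 CPM in the exposed libraries and at 55.1 and 75.8 CPM in the controls (123 ± 16.3 against 65.5 ± 14.6 CPM, SD, n = 2 each; log2 fold change 0.90, SE 0.22, adjusted p = 0.762 by edgeR and 0.236 by DESeq2). The groups were apart by more than the distance within either, and the fold change ran from 0.70 without control 1 to 1.14 without control 2.

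RPS25 and RPS12 were the other small subunit genes with an unadjusted edgeR p under 0.05, and they are named for it after their values were seen. RPS25, which in human and yeast cells is needed for initiation at certain internal entry sites, stood at 202 and 188 CPM in the exposed libraries and 129 and 151 CPM in the controls (log2 fold change 0.48, SE 0.16, adjusted p = 0.843 by edgeR). RPS12 stood at 132 and 121 CPM against 94.0 and 94.9 CPM (0.42, SE 0.14, adjusted p = 0.843 by edgeR). Its controls were almost equal, and without control 1 its fold change was still 0.42. RPS28, on few reads, stood at 12.6 and 14.4 CPM against 10.2 and 7.32 CPM (0.63, SE 0.27). RPSA, the laminin-binding protein of the small subunit and the ribosomal protein gene with the most reads, was level at 773 and 691 CPM against 710 and 773 CPM (-0.019, SE 0.21). RPS3A, also among those with the most reads, stood at 473 and 566 CPM against 344 and 523 CPM, and its fold change of 0.26 was -0.0029 without control 1.

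**Figure D3:**
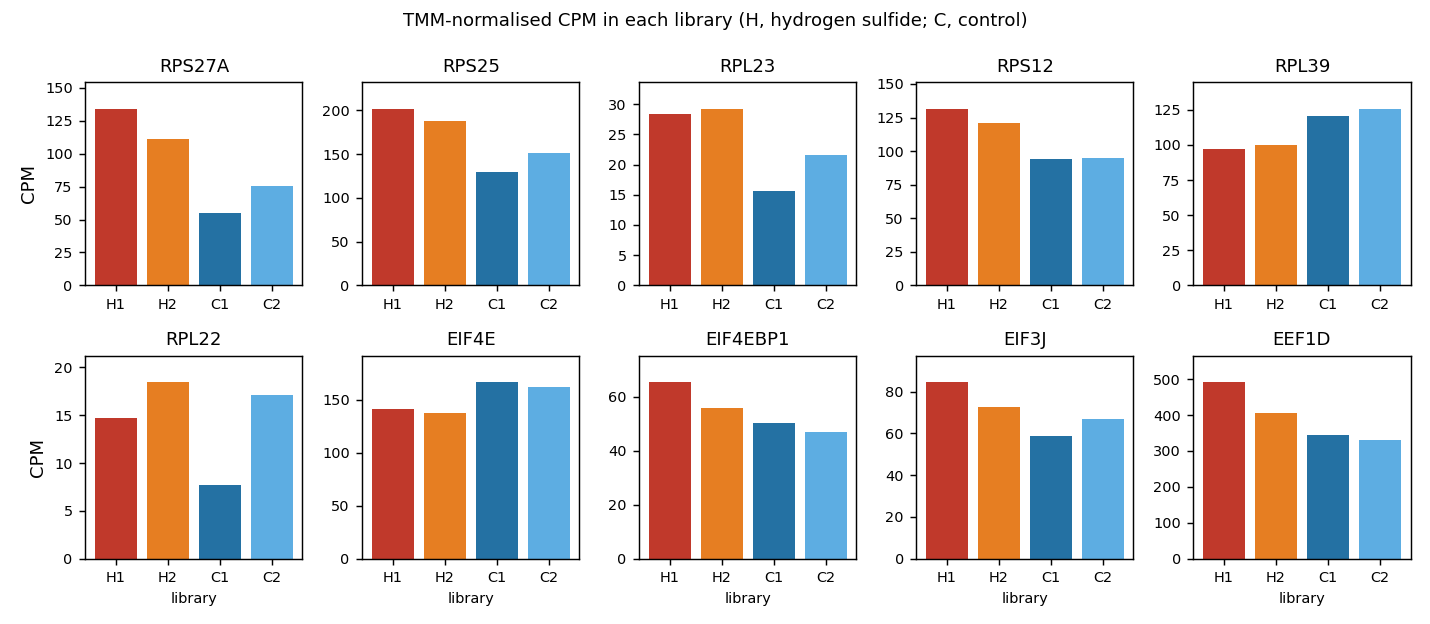
Bars give the TMM-normalised CPM of 10 members in each library, with axes that start at 0 (H1 and H2, hydrogen sulfide; C1 and C2, control). RPS27A, RPS25, RPL23, RPS12, EIF4EBP1, EIF3J and EEF1D have both H bars above both C bars, RPL39 and EIF4E have both below, and RPL22 is low in C1 only.

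Several ribosomal proteins have a paralogue, a second gene whose product can take the same place or has left the ribosome. RPL22L1 replaces RPL22, which in mouse represses it. RPL22 stood at 14.7, 18.5, 7.69 and 17.1 CPM in hydrogen sulfide 1 and 2 and control 1 and 2, and RPL22L1 at 15.6, 14.3, 15.1 and 14.1 CPM. RPL22L1 made up 66.2% of the reads of the pair in control 1 and 43.7% to 51.5% in the other 3 libraries. The difference lay between libraries and in RPL22, whose log2 fold change of 0.42 (SE 0.43) was -0.038 without control 1. RPL3L is a form of RPL3 that mammals make in skeletal and heart muscle. It had only 64 and 26 reads after exposure, against 8 and 7 for the controls (2.96 and 1.18 against 0.436 and 0.413 CPM; log2 fold change 2.27, SE 0.67, adjusted p = 0.827 by edgeR). Its share of the pair's reads was 1.09% and 0.491% against 0.200% and 0.151%, so RPL3, at 218 to 274 CPM, supplied nearly all reads of the pair.

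RPS27L, a paralogue of RPS27 that p53 induces in human cells, had 64, 62, 93 and 40 reads, with control 1 highest and control 2 lowest. Both exposed libraries of RPS27 itself lay below the controls by a small margin (23.3 and 18.9 against 23.9 and 23.9 CPM). RPL7L1, which in mammals works in assembly of the large subunit, stood at 79.1 and 78.7 CPM against 68.1 and 77.1 CPM, and RPL7 at 246 and 222 against 230 and 218 CPM. RPL35A had 51, 19, 12 and 16 reads, so its fold change of 1.01 (SE 0.67) hung on hydrogen sulfide 1 and was 0.11 without it. The sources used here do not say how reads of near-identical copies were assigned, and values of these paralogues are uncertain for that reason.

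In the reference table (RefSeq, assembly GRCg7b), 4 members lie on the Z chromosome: RPS6, RPS23, RPL17 and RPL37. Male birds have a pair of Z chromosomes and females a Z and a W, and birds do not silence a whole Z as mammals silence an X. The other 627 tested Z genes had a median deviation of -0.25 and 0.29 in hydrogen sulfide 1 and 2 and of 0.29 and -0.29 in control 1 and 2, so each group held a library with more and a library with less Z-linked RNA. RPS6, the small subunit protein that S6 kinases phosphorylate, stood at 269 and 454 CPM in hydrogen sulfide 1 and 2 and at 348 and 289 CPM in control 1 and 2. RPS23, a protein of the decoding centre, stood at 35.9 and 63.8 CPM against 56.4 and 39.3 CPM. RPL17, at the mouth of the exit tunnel, stood at 167 and 261 CPM against 202 and 132 CPM. All 3 were higher in the library of each group with more Z-linked RNA.

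Hydrogen sulfide 2 exceeded hydrogen sulfide 1 by 0.75, 0.83 and 0.65 on the log2 scale for RPS6, RPS23 and RPL17, and by a median of 0.56 for the other Z genes. Control 1 exceeded control 2 by 0.27, 0.52 and 0.61, where the other Z genes had 0.58. The other 71 ribosomal protein genes had medians of -0.10 and -0.30 for these differences, and 3 of the 71 were higher in both hydrogen sulfide 2 and control 1. RPL37 stood at 128 and 131 CPM in the exposed libraries and 171 and 141 CPM in the controls, with differences of 0.036 and 0.28, so it departed from the other Z genes in the exposed pair. Between the exposure groups none of the 4 passed, with log2 fold changes of 0.19 (SE 0.30) for RPS6, 0.059 (SE 0.35) for RPS23, 0.36 (SE 0.32) for RPL17 and -0.27 (SE 0.17) for RPL37. The ribosomal protein median was 0.12 with and without these 4 genes. These are descriptions of 4 libraries, with no test of Z dosage.

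**Figure D4:**
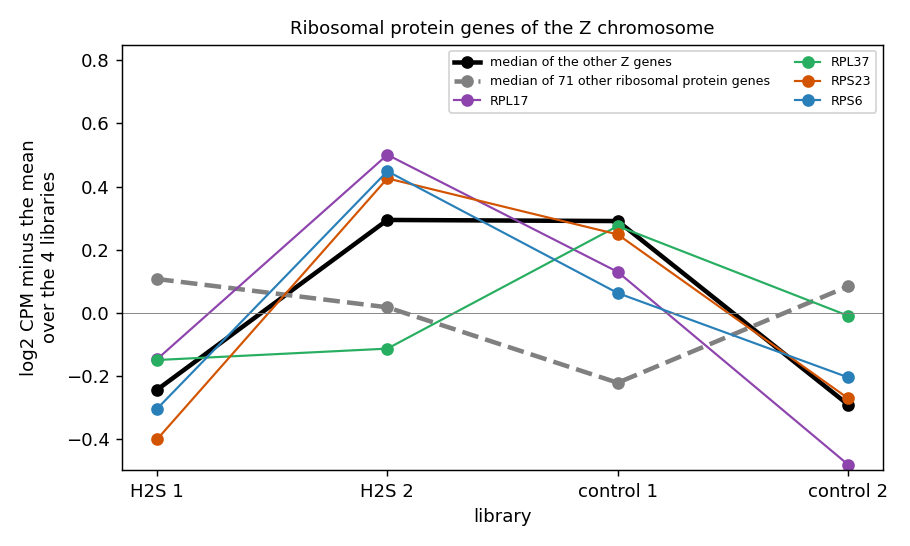
The vertical axis is log2 CPM minus the mean over the 4 libraries, for the 4 ribosomal protein genes of the Z chromosome, the median of the other 627 Z genes (black) and the median of the other 71 ribosomal protein genes (dashed); lines only join the values of an item. RPS6, RPS23 and RPL17 are highest in hydrogen sulfide 2 and, of the controls, in control 1, as the black line is.

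Some genes that are sex-linked in mammals are listed here under those names but lie on autosomes in the chicken table: RPS4X is a synonym of an entry on chromosome 4, and EIF1AY and EIF2S3L are synonyms of EIF1AX and EIF2S3 on chromosome 1. RPS4X stood at 352 and 316 CPM in the exposed libraries and 257 and 358 CPM in the controls, with the lowest value in control 1, as for most ribosomal protein genes.

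Among the elongation factors, the subunits of the eEF1 complex differed from each other. EEF1A1, which delivers aminoacyl-tRNA to the ribosome, had the most reads of any member, at 2705 and 2462 CPM in the exposed libraries and 2327 and 2893 CPM in the controls (log2 fold change -0.015, SE 0.34), with the groups overlapping. The exchange factor subunit EEF1D stood at 492 and 407 CPM against 344 and 331 CPM (0.41, SE 0.19, adjusted p = 0.972 by edgeR), without overlap and with a fold change of at least 0.27 whichever library was left out. The other exchange subunit EEF1B2 was level, at 256 and 227 CPM against 226 and 264 CPM. EEF2, which moves the ribosome by a codon, stood at 433 and 349 CPM against 284 and 354 CPM (0.29, SE 0.22). EEF2K, the kinase that inhibits it, stood at 128 and 125 CPM against 128 and 113 CPM (0.068, SE 0.15). EEFSEC, which delivers selenocysteine, stood at 9.40 and 10.5 CPM against 8.72 and 8.20 CPM (0.24, SE 0.24).

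EEF1A2, the form of eEF1A that mammals use in muscle and neurons, had the largest range of any member. It stood at 464 and 198 CPM in hydrogen sulfide 1 and 2 and at 563 and 77.8 CPM in control 1 and 2, so hydrogen sulfide 1 and control 1 were high and hydrogen sulfide 2 and control 2 low. Its share of the reads of the EEF1A pair was 14.6%, 7.44%, 19.5% and 2.62% in the same order. The summed level of the skeletal muscle markers, given above, was high in the same 2 libraries, and of that list only XIRP2, listed as LOC772075, was at 0 in all of them. The muscle actin ACTA1 stood at 3121, 1374, 3451 and 421 CPM. The part of muscle in the EEF1A2 values was not tested. The difference between exposure groups was 0.046 (SE 0.96), and it ran from -0.78 without control 2 to 2.09 without control 1. RPL3L did not follow the order of the marker sum and ACTA1, since control 1, where both were high, had 8 reads of it. Markers within the list differed in order. XIRP1 stood at 296, 154, 125 and 37.8 CPM and MYH1D at 2332, 33.9, 24.8 and 131 CPM, both highest in hydrogen sulfide 1, as RPL3L was. The part of muscle in the RPL3L values was not tested.

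**Figure D5:**
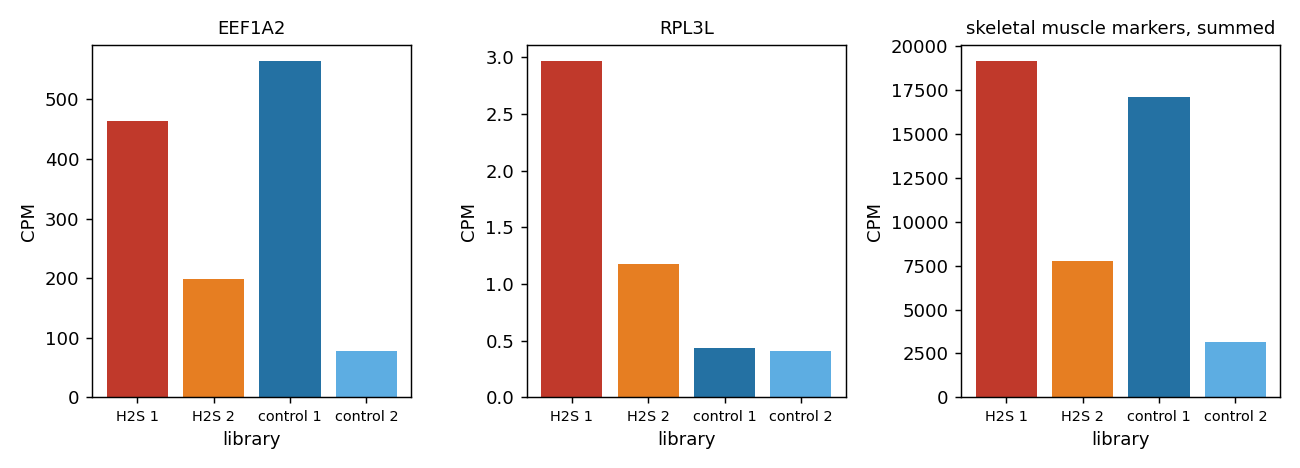
Bars give, in each library, the CPM of EEF1A2 (left) and of RPL3L (middle). The right panel sums the CPM of the 33 genes matched to the skeletal muscle list. Axes are separate and start at 0. EEF1A2 and the marker sum are high in hydrogen sulfide 1 and control 1, and RPL3L is highest in hydrogen sulfide 1 and low in both controls.

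The eIF2 arm brings the initiator tRNA and is shut down under stress by phosphorylation of its alpha subunit. The 5 members classed as EIF2 all lay within 0.25 of no difference, as did 90.4% of the factors and 56.8% of all tested genes. EIF2S1, that alpha subunit, stood at 66.8 and 69.8 CPM in the exposed libraries and 60.7 and 68.2 CPM in the controls (log2 fold change 0.084, SE 0.15). The gamma subunit gene, listed as EIF2S3L, was lower without overlap, at 179 and 189 CPM against 192 and 213 CPM (-0.14, SE 0.16). Of the 5 members of eIF2B, the complex that recharges eIF2 with GTP, EIF2B4 had the lowest fold change of all factors, at 15.8 and 15.6 CPM against 21.9 and 16.9 CPM (-0.30, SE 0.22). That difference came mainly from control 1 and was -0.095 without it. EIF2B2 likewise was highest in control 1, at 31.5 CPM against 24.2 to 26.1 CPM in the other 3 libraries.

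The 3 eIF2 kinases in the set sense different stresses. EIF2AK1, which responds to lack of heme, stood at 30.4 and 22.1 CPM in the exposed libraries and 21.9 and 24.2 CPM in the controls (log2 fold change 0.19, SE 0.23). EIF2AK3, the sensor of unfolded protein in the endoplasmic reticulum, stood at 103 and 111 CPM against 116 and 112 CPM (-0.085, SE 0.14). EIF2AK4, which responds to uncharged tRNA, stood at 24.8 and 31.6 CPM against 21.8 and 28.0 CPM (0.18, SE 0.23). The groups overlapped in EIF2AK1 and EIF2AK4, and the fold changes of both lost their sign in 1 case when an exposed library was left out, at -0.058 and -0.0020.

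The set has 11 of the subunits of eIF3, the scaffold that holds the small subunit ready. Of these, 8 had a negative fold change (median -0.048). Within 0.25 of no difference lay 10 of the 11 (90.9%), against 56.8% of all tested genes. The exception was EIF3J, a loosely bound subunit that leaves before the mRNA is fully seated. It stood at 84.5 and 72.4 CPM in the exposed libraries and 58.5 and 67.0 CPM in the controls (log2 fold change 0.32, SE 0.17, adjusted p = 0.999 by edgeR). Its groups did not overlap, although hydrogen sulfide 2 exceeded control 2 by little. EIF3I was the subunit that lay lower without overlap, at 76.8 and 69.4 CPM against 83.2 and 77.1 CPM (-0.13, SE 0.15). It was named after its values were seen. Hydrogen sulfide 2 was the lowest library for 7 of the 11, against 25.4% of all tested genes.

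Around the mRNA cap, the cap-binding protein and its inhibitor had opposite signs. EIF4E, which binds the cap, stood at 141 and 137 CPM in the exposed libraries and 166 and 162 CPM in the controls (log2 fold change -0.24, SE 0.14, adjusted p = 0.999 by edgeR). EIF4EBP1, a repressor that holds EIF4E until mTOR phosphorylates it, stood at 65.5 and 55.7 CPM against 50.5 and 47.1 CPM (0.31, SE 0.17, adjusted p = 0.999 by edgeR). Neither pair of groups overlapped, and leaving out any library left EIF4E between -0.27 and -0.21 and EIF4EBP1 between 0.20 and 0.42. The reads of EIF4EBP1 per read of EIF4E, in which transcript length cancels between libraries, were 0.464 and 0.406 after exposure, against 0.303 and 0.291 for the controls. Both genes already lay apart with opposite signs, so their ratio had to separate the groups and adds no support. An exact permutation test of that ratio cannot give a two-sided p under 0.333 with 2 libraries a group. EIF4EBP2, a related repressor, had 18.4 and 15.2 CPM against 19.7 and 14.9 CPM. EIF4ENIF1, which carries EIF4E into the nucleus, stood at 36.7 and 36.2 against 33.0 and 32.3 CPM (0.16, SE 0.15). It was named after its values were seen.

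The scaffold EIF4G1 stood at 255 and 248 CPM in the exposed libraries and 204 and 232 CPM in the controls (log2 fold change 0.21, SE 0.16), without overlap. EIF4G3 stood at 153 and 161 CPM against 144 and 188 CPM. EIF4G2, a relative of the scaffold that does not bind EIF4E, stood at 1619 and 1452 CPM against 1524 and 1403 CPM. The helicase EIF4A2 stood at 936 and 847 CPM against 852 and 979 CPM. EIF4A3, a related helicase of the exon junction complex, stood at 100 and 98.0 CPM against 108 and 109 CPM (-0.13, SE 0.14), the exposed pair below the controls. The cap-binding relatives EIF4E2 and EIF4E3 overlapped between groups, with EIF4E3 lowest in hydrogen sulfide 2 at 24.7 CPM against 35.9 to 39.1 CPM elsewhere.

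Of the remaining initiation factors, EIF1AY, which helps the ribosome scan for the start codon, stood at 54.3 and 62.1 CPM in the exposed libraries and 51.3 and 48.2 CPM in the controls (log2 fold change 0.23, SE 0.16). EIF5B, which joins the subunits, stood at 109 and 103 CPM against 92.3 and 99.4 CPM (0.14, SE 0.15). EIF6, which keeps the subunits apart, stood at 148 and 168 CPM against 143 and 139 CPM (0.16, SE 0.15). The exposed libraries lay above the controls in these 3, as in 15.3% of all tested genes, and no fold change reached 2 standard errors. EIF5B and EIF6 were named after their values were seen, so their lack of overlap supports nothing. Of the same roles, EIF1B also lay above (0.080), and EIF1 and EIF5 overlapped (-0.013 and 0.017). EIF5A2, the hypusine-bearing factor that helps ribosomes past proline stretches, was highest in control 2 at 266 CPM, against 192 to 203 CPM in the other 3 libraries (-0.24, SE 0.20), and its fold change was -0.037 without control 2.

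The wider translation machinery was read from 4 further lists. Of 71 tested genes of ribosome assembly, 39 had a higher and 32 a lower level after exposure (median log2 fold change 0.024), and none had an edgeR adjusted p under 0.05. Their smallest p belonged to RRN3, which recruits RNA polymerase I to the rRNA genes, at 54.9 and 67.3 CPM against 44.1 and 47.7 CPM (0.41, SE 0.18). Of 29 tested genes of termination, recycling and ribosome-associated factors, 15 were higher and 14 lower (median 0.014). NACA, which shields new peptides at the tunnel exit, stood at 46.9 and 49.4 CPM against 33.0 and 41.1 CPM (0.38, SE 0.18). The scaffold protein RACK1, listed as GNB2L1, was level at 385 and 353 CPM against 351 and 365 CPM. Of 23 tested genes for cytosolic aminoacyl-tRNA synthetases and their cofactors, 7 were higher and 16 lower (median -0.055), and LARS, for leucine, stood at 94.6 and 94.8 CPM against 70.7 and 83.6 CPM (0.30, SE 0.16).

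Of 38 tested genes that control translation through mTOR or the integrated stress response, 25 were higher and 13 lower (median 0.076), 9 of them higher and 2 lower without overlap, against 15.3% and 17.2% of all tested genes. DDIT4, an inhibitor of mTOR that stress and glucocorticoids induce, was the only gene of these 4 lists with an unadjusted edgeR p under 0.05, a level that 5.58% of all tested genes reached. It stood at 41.1 and 35.1 CPM in the exposed libraries and 16.0 and 17.3 CPM in the controls (log2 fold change 1.19, SE 0.19, adjusted p = 0.571 by edgeR), with a wide gap between the groups. ATF4, the transcription factor of the integrated stress response, stood at 358 and 347 CPM against 274 and 356 CPM (0.16, SE 0.20). Its targets DDIT3 (4.03 and 2.67 against 1.96 and 2.06 CPM) and CHAC1 (6.21 and 7.69 against 2.45 and 4.78 CPM) were higher without overlap at low levels, and ASNS, another target, overlapped at 104 and 95.7 against 117 and 104 CPM. SESN2, PSAT1, PHGDH and SLC7A11 of the same list also overlapped, with log2 fold changes of -0.032, 0.45, -0.13 and 0.31. These genes beyond DDIT4 were named after their values were seen.

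Marker lists of lymphocytes and dividing cells stood further apart between the groups, with median log2 fold changes of -0.94 for both. All 37 tested cell cycle markers were lower in the exposed libraries (summed level 1123 and 971 CPM against 1903 and 2034 CPM), and so were 19 of 20 B cell and plasma cell markers (3050 and 2611 against 13553 and 11885 CPM). IGLL1 (1370 and 1095 against 6670 and 6253 CPM) and IGJ (955 and 760 against 5839 and 4338 CPM) made up most of the B cell sums. No matched gene of either list was at 0 in all libraries. Their part in the values of the ribosomal protein and factor genes was not tested.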

How the data were processed

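The authors deposited 1 table of raw read counts per gene for 4 libraries, with no normalization. Per the submitters' processing notes, reads were aligned with HISAT2. The aligner version, counter, genome build, gene annotation and strand setting were not given in the sources used here. Counts were fitted in edgeR 4.0.16 (R 4.3.3) on all genes that passed filterByExpr: TMM factors, glmQLFit with the current dispersion method, glmQLFTest, two-sided, no covariate, 2 residual degrees of freedom, Benjamini-Hochberg adjustment over 16545 genes. The fit was tested on simulated data. CPM values are TMM-normalised, and the standard error is the absolute log2 fold change over the root of F. Deviations use log2 CPM with a prior count of 2. Levels of different genes are not compared, since transcript lengths were not used. Alternatives were DESeq2 1.42.0, the edgeR exact test, limma-voom (limma 3.58.1), other scalings and filters, blocks and each library left out.

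The members and lists were chosen with earlier results of these data known. Named genes are, by rule, those with an adjusted p under 0.05; the 5 largest increases and decreases at a mean of 5 CPM or more and the 3 with most reads in each class; the smallest p of each role and list; the 5 of largest range; fixed paralogue sets; and members on Z or W. Others were named after their values were seen. Names and chromosomes come from the RefSeq table of assembly GRCg7b, in which 123 of the 127 members were found, 5 of them through a synonym. Of 80 core ribosomal proteins of the mammalian nomenclature, 69 are members, and the others were not analysed here as members. No sequence was used here, so the planned promoter motif search was not run. Results of withheld items are not reported here.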

Additional observations from a re-analysis of the deposited data

How the results depend on the processing

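No member had an adjusted p under 0.05 with any alternative. Over all genes, DESeq2 called 132 and the edgeR exact test 79, where the quasi-likelihood test called 0 (924 at an unadjusted p under 0.05). The factor median of 0.019 became -0.064 with library totals, where the median of all tested genes was -0.071 and that of the ribosomal protein genes 0.040. Leaving out a library gave ribosomal protein medians from 0.020 to 0.26, factor medians from -0.034 to 0.059 and differences between the classes from 0.042 to 0.22. The medians over all tested genes then ran from -0.021 to 0.032. RLE factors, TMM factors computed without the members, no filter, legacy dispersion, DESeq2, the exact test and limma-voom left the ribosomal protein median between 0.12 and 0.13. So did leaving out the variants or the Z genes, which was added after seeing the data. Over all tested genes, deviations of libraries with the same replicate number had a correlation of -0.002 between the groups. With 2 libraries a group, opposite patterns can cancel in that value, so it cannot decide whether the libraries are paired. With the replicate block the ribosomal protein median was 0.12, with 0 calls, and with libraries paired by Z-linked level it was 0.12, with 0 calls.

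With library totals the fold changes of EEF1A2, EEF2K, EIF4G2, RPL22L1, RPL3, RPL7 and RPS23 turned to -0.064, -0.017, -0.015, -0.045, -0.033, -0.017 and -0.029. The sign also turned for these genes when a library was left out, with these ranges: EEF1A1 -0.16 to 0.14, EEF1A2 -0.78 to 2.09, EEF2K -0.031 to 0.17, EIF2AK1 -0.058 to 0.40, EIF2AK4 -0.0020 to 0.36, EIF4A2 -0.13 to 0.053, EIF4E3 -0.54 to 0.11, EIF4EBP2 -0.25 to 0.18, EIF4G2 -0.0084 to 0.15, EIF4G3 -0.25 to 0.12, RPL17 -0.0031 to 0.70, RPL22 -0.038 to 1.10, RPL22L1 -0.021 to 0.099, RPL29 -0.92 to 0.11, RPL3 -0.10 to 0.21, RPL7 -0.0063 to 0.14, RPLP0 -0.053 to 0.28, RPS23 -0.41 to 0.42, RPS27L -0.82 to 0.30, RPS3A -0.0029 to 0.58, RPS6 -0.24 to 0.52, RPSA -0.099 to 0.059. The cause was not tested. With 2 libraries a group, the medians of the classes varied between replicates by a pooled SD of 0.15 for ribosomal proteins and 0.068 for factors.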

Other observations

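The rows with like names that the rule leaves out are EIF2AK2 and genes named as ribosomal S6 kinases. EIF2AK2, the eIF2 kinase that double-stranded RNA activates and interferon induces, stood at 273 CPM in hydrogen sulfide 1, against 56.3 CPM in hydrogen sulfide 2 and 75.4 and 91.4 CPM in the controls (log2 fold change 0.98, SE 0.73, adjusted p = 0.999 by edgeR). A single library therefore made that difference, and the other exposed library was the lowest of the 4. The S6 kinase gene RPS6KB1, which phosphorylates RPS6, stood at 70.8 and 86.2 CPM in the exposed libraries and 51.1 and 63.8 CPM in the controls (0.45, SE 0.20, adjusted p = 0.954 by edgeR), without overlap. RPS6KA3, of the family that acts downstream of ERK, stood at 144 and 142 against 124 and 119 CPM (0.23, SE 0.14), and RPS6KA1 of the same family at 128 and 130 against 132 and 168 CPM (-0.22, SE 0.18). RPS6KB2, the related S6 kinase gene, had the opposite sign to RPS6KB1 and overlapped (-0.15, SE 0.31). RPS6KA5 lay lower (-0.16) and RPS6KC1 higher (0.14), both without overlap. RPS6KA6, RPS6KA2 and RPS6KL1 overlapped, with log2 fold changes of 0.060, 0.0010 and 0.020. All genes of this paragraph were named after their values were seen.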
